A study of Mus musculus with 12 samples.

Results

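Leptomeningeal fibroblast-like and barrier nuclei were picked out of single-nucleus RNA sequencing of mouse cortex by a fixed combination of transcripts. A nucleus counted as a member when it held at least 2 unique molecular identifiers (UMIs, 1 for each captured RNA molecule) of Bnc2 and at least 1 in the sum of Slc6a13, Slc47a1, Col1a2 and Ranbp3l. It also had to hold no UMI of Rbfox3, Slc17a7, Gad1 or Gad2, which mark neurons. Among barcodes with at most 12000 UMIs and at most 1% mitochondrial UMIs, 166 of 71914 met the rule.

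The leptomeninges are the inner membranes of the brain, the arachnoid and the pia. Their fibroblasts secrete collagen and other matrix, and make growth factors and retinoic acid that act on the developing cortex below. A layer of arachnoid cells joined by tight junctions and rich in transporters forms a barrier between the blood of the dura and the cerebrospinal fluid. Bnc2 encodes a zinc finger protein of mesenchymal cells. Slc47a1 encodes an exporter of organic cations, Slc6a13 a GABA transporter, Col1a2 a chain of type I collagen and Ranbp3l a Ran-binding protein.

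The 12 animals were 6 WT and 6 MYT1L Het mice of the MYT1L S710fsX line, in which Hets carry 1 frameshift allele of Myt1l, and each genotype had 3 males and 3 females. All were 21 days old (P21), had been given AAV9 with the hyPB transposase and a nuclear tdTomato reporter (H2b-tdT-SRT) as newborns, and came from 4 litters. The nuclei were isolated from frozen cortex. By the study's methods the meninges were removed from embryonic brains and the tissue of P21 animals was collected in a like manner, and how much membrane remained on these cortices is not given in the sources used here. Replicates are separate animals.

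Total UMIs per animal ranged from 23429386 to 59958572, and 3801 to 7923 barcodes per animal were kept. No barcode was shared between animals. The 166 members had a median of 2428 UMIs and 1588.5 genes, against 4958 UMIs and 2191 genes in the other kept nuclei and 2798 UMIs and 1503 genes in the 8127 of these without UMIs of the 4 neuronal genes. The median UMIs per member in an animal were 2362 ± 265 in WT and 2390 ± 304 in Het (SD, n = 6 each). The exact two-sided permutation test of that difference gave p = 0.874.

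Because the rule used them, the levels of its genes are descriptions. Members held 2 to 49 UMIs of Bnc2 (median 14) and 1 to 24 UMIs of the other 4 genes together (median 4). Slc47a1 was present in 126 members (75.9%) and Col1a2 in 121 (72.9%). Ranbp3l was present in 25 members (15.1%) and Slc6a13 in only 7 (4.22%). Slc47a1 and Col1a2 occurred together, without the other pair, in 87 members, Slc47a1 alone in 32, Col1a2 alone in 22 and Ranbp3l alone in 9. Most members were thus selected by Slc47a1 and Col1a2, and the named marker Slc6a13 was missing from nearly all of them. Members were also set against 420 astrocyte nuclei (median 2955.5 UMIs), picked by astrocyte transcripts. These summed to 9118 CPM on a list of astrocyte markers but 17327 CPM on a list of neuronal markers, so they are no pure astrocyte reference. In the astrocyte nuclei the share with a UMI was 3.33% for Bnc2, 0.476% for Slc47a1 and for Slc6a13 and 3.81% for Col1a2, but 17.4% for Ranbp3l. The share for Ranbp3l in members was therefore no higher than in astrocyte nuclei, and its level was 329 CPM in members against 77.5 CPM.

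At the edges of the rule the groups of nuclei were small. The 5 members with a Bnc2 value of 2 to under 3 had a level of 1849 CPM (UMIs of the gene per 1000000 UMIs of the pooled nuclei) of Ranbp3l and 1937 CPM of the astrocyte transporter Slc1a2, with 176 CPM of Tbx15. The 9 nuclei just outside it, with a Bnc2 value of 1 to under 2, had 1524 CPM of Ranbp3l, 2348 CPM of Slc1a2 and 124 CPM of Tbx15. In the 161 members with 3 or more the same genes stood at 290 CPM (Ranbp3l), 215 CPM (Slc1a2) and 1391 CPM (Tbx15). Ranbp3l is a gene of the rule and its level there is a description, and other genes differed across the limit, with Mbp at 88.0 CPM in the 5, 1771 CPM in the 9 and 114 CPM in the 161. Nuclei on either side of the other limit also held transcripts of the members. The 16 members with a sum of 1 to under 2 over the other 4 genes had 1056 CPM of Tbx15 and 6877 CPM of Slc4a10, and the 22 nuclei with a sum under 1 had 429 and 3624 CPM. Another 51 nuclei met every criterion except the absence of neuronal UMIs, and these had a median of 5216 UMIs and 2930 CPM of the neuronal gene Syt1. A further 2 exceeded the UMI limit.

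Genes with high ratios to the other nuclei included transcription factors of mesenchyme, genes of secreted matrix and transporters. Of 2449 genes with a UMI in at least 20% of members, 1092 were at 2 times or more their level in the other kept nuclei, 279 at 10 times or more and 45 at 50 times or more, with 5 CPM added to both sides of each ratio. The ratios describe nuclei chosen by their own transcripts and were not tested. Levels per animal below cover the 11 animals with at least 5 members.

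After Bnc2 itself (chr4:84275095-84675275, minus strand, mm10), at 6101 CPM against 6.08 CPM elsewhere, came Tbx15, a T-box transcription factor of mesenchyme (chr3:99240381-99354259, plus strand). Tbx15 was detected in 84.3% of members and 0.238% of astrocyte nuclei. It stood at 1361 CPM in members against 2.51 CPM in the other nuclei, a ratio of 182, and ranged over animals from 814 to 1771 CPM (median 1299). Eya2, a transcriptional co-activator and phosphatase, reached 1371 CPM against 5.09 CPM, with 600 to 1913 CPM over animals. Prdm6, a PR domain protein, stood at 956 against 1.03 CPM. The range of each of these genes across animals lay wholly above its level in the other nuclei, a contrast by which they were chosen.

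Extracellular genes among the 25 highest ratios included Adamtsl3 at 1866 CPM against 5.39 CPM, Sned1 at 1435 against 4.25, Hmcn1 (hemicentin) at 1374 against 6.92, Col1a2 at 671 against 1.402 and Fn1 (fibronectin) at 1029 against 4.98. The lowest animal for Fn1 was WT female 3 at 150 CPM against a median of 936 CPM, and for Hmcn1 it was Het male 2 at 312 CPM against a median of 1280 CPM. Transporters formed a second group. Slc47a1 (chr11:61343401-61378345, minus strand) was at 865 CPM against 0.658 CPM and varied from 187 to 1528 CPM over animals. Slc26a2, a sulfate transporter, was at 841 against 3.87 CPM, Slc26a7, an anion exchanger, at 569 against 2.24, the cationic amino acid transporter Slc7a2 at 541 against 1.84 and the drug efflux pump Abcb1a at 447 against 1.26. Abcb1a was above the other nuclei in 10 of the 11 animals.

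The remaining genes of the 25 were of mixed function. They included Dock5, an activator of Rac (1382 against 6.97 CPM), Fbxl7, an F-box protein (3066 against 30.7 CPM), the ligand Bmp5 (465.7 against 1.32 CPM), the long noncoding RNAs Neat1 (1254 against 12.4 CPM) and Gm6260 (1044 against 2.20 CPM), and Phldb2, Gulp1, Anxa3, Nxn and Cped1. Ptgds, the prostaglandin D synthase known from leptomeninges, stood out for its unevenness: its 446 CPM came from 41 members (24.7%), and it was above the other nuclei in 9 of 11 animals. The genes of the 25 other than Ptgds and Abcb1a were above in all 11. The 25 hold the rule genes Bnc2, Slc47a1 and Col1a2 and were chosen by the pooled ratio, so these counts of animals are descriptions. Of the 25 genes, 11 overlapped another annotated gene on the same strand, where UMIs of the 2 cannot be told apart.

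**Figure D1:**
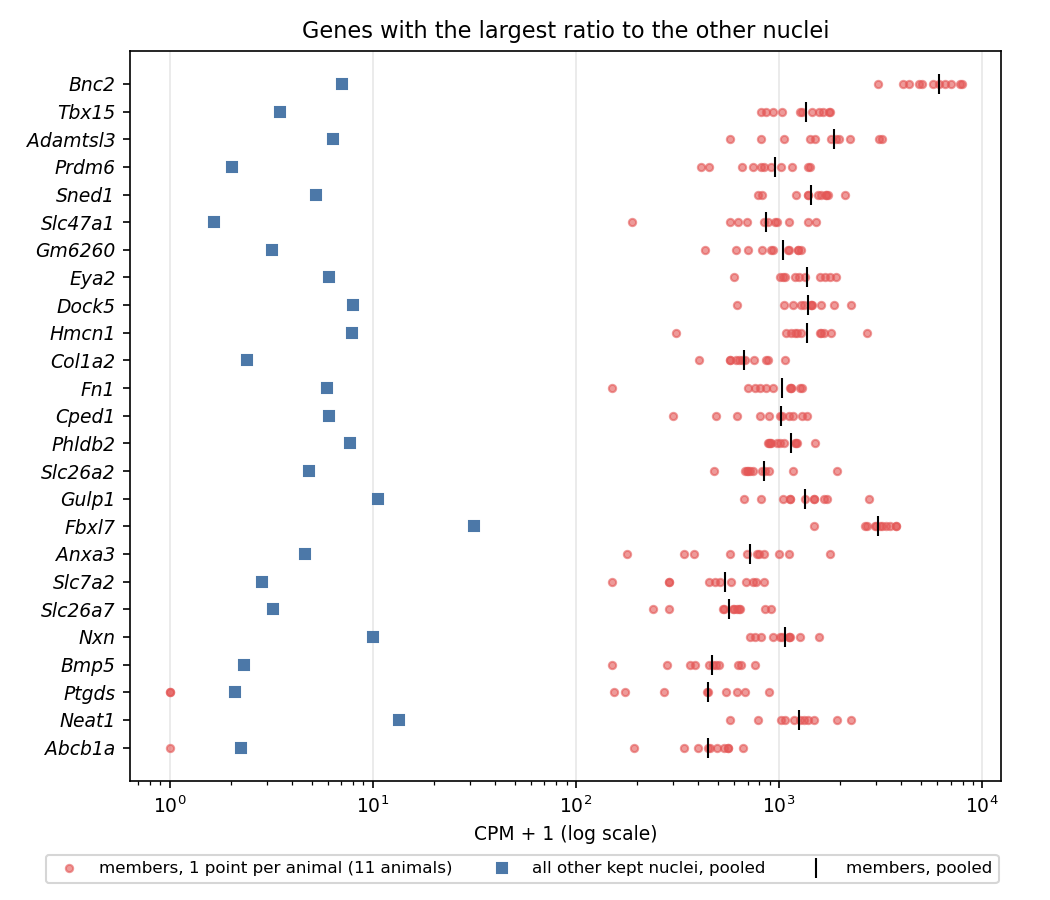
Levels of the 25 genes with the largest ratio of members to the other kept nuclei, on a log axis of CPM + 1. Red points are members summed per animal (11 animals with at least 5 members), black ticks all 166 members pooled and blue squares all other kept nuclei pooled. The points of Bnc2 run from 3067 to 7934 CPM, and only Ptgds and Abcb1a have animals at 0.

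Transcription factors known from meningeal mesenchyme were widely present. Of 38 on the list, which holds Bnc2, 27 were at 2 times or more their level elsewhere and 16 at 10 times or more. Foxp1 was detected in 98.8% of members, Foxp2 in 97.0% and Nfia in 97.6%, where astrocyte nuclei had 55.5% for Foxp1 and 20.95% for Foxp2. Genes known from the embryonic meninges stood far above the other nuclei: Foxc1 was at 181 CPM against 0.279 CPM elsewhere, Foxc2 at 163 against 0.142, Foxd1 at 249 against 0.314, Zic1 at 329 against 1.31 and Zic4 at 268 against 0.605. On this list 6 genes had no UMI in members. Foxc1, whose loss is known to disturb meningeal development, was present in 56 members and in no astrocyte nucleus.

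The matrix list had the highest share of raised genes among the functional lists, with 29 of 38 genes (Col1a2 among them) at 2 times or more and 17 at 10 times or more. Beside those given above, Col1a1 was at 404 CPM against 0.997 CPM elsewhere and Col3a1 at 268 against 0.613, the other main fibrillar collagens of fibroblasts. Col25a1, a transmembrane collagen, was found in 130 members at 2549 against 155 CPM. Lama2, a laminin chain of basement membranes, stood at 664 against 16.5 CPM and Col6a2, of the beaded filament collagen VI, at 362 against 4.25. Classical fibroblast genes were patchier. Dcn (decorin) was detected in 59 members, Igf2 in 42, Pdgfra in 13 and Lum (lumican) in 3. Against 35.5% of members, 1.19% of astrocyte nuclei held Dcn. Pdgfra was at 7.83% in members and 14.3% in astrocyte nuclei, so it did not set members apart from these. The astrocyte nuclei also held 2876 CPM of the oligodendrocyte precursor (OPC) list, against 486 CPM in members, and the source of the Pdgfra UMIs was not tested.

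Of 33 transport genes, Slc47a1 and Slc6a13 among them, 20 were at 2 times or more. Slc4a10, a sodium-driven bicarbonate exchanger, was detected in 150 members (90.4%) at 8067 CPM against 641 CPM elsewhere, and the neutral amino acid transporter Slc38a2 in 157 members (94.6%) at 3269 against 44.8 CPM. Slc23a2, which carries ascorbate, stood at 1820 against 138 CPM and Slc4a4, a bicarbonate cotransporter, at 1231 against 162 CPM. The efflux pump Abcg2 was found in 107 members (64.5%) at 486 against 13.4 CPM. Astrocyte nuclei held Slc4a10 in 48.1%, Slc38a2 in 18.1% and Abcg2 in 4.76%, at a greater depth and with 17327 CPM of the neuron list.

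Junction genes included both adherens and gap junction proteins. Cdh11, the cadherin of mesenchyme, was in 135 members at 1003 against 299 CPM. Gja1, a connexin shared by meninges and astrocytes, was in 99 members at 400 CPM, against 1.35 CPM in all other kept nuclei and 82.9 CPM in 420 astrocyte nuclei. The connexins Gjb2 and Gjb6 were at 55.2 and 117 CPM. Cdh5, best known as the endothelial cadherin, was in 66 members at 189 against 0.609 CPM. Cdh1 (E-cadherin), a marker of the arachnoid barrier, was in 48 members at 179 against 0.783 CPM. In astrocyte nuclei Cdh5 was detected in 0.476% and Cdh1 in 1.19%, against 39.8% and 28.9% of members.

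Signalling genes covered ligands and receptors of several families. Of the TGF-beta and BMP list, 19 of 32 genes were at 2 times or more. Its ligands Bmp6 (656 against 5.39 CPM), Bmp5 and Bmp4 (137 against 0.716 CPM) and its receptors Tgfbr3 (792 against 28.4 CPM) and Tgfbr1 (351 against 25.2 CPM) were among these. Of the growth factor and guidance list, 21 of 32 were. Egfr, the receptor for epidermal growth factor, was in 148 members at 1485 against 23.9 CPM, Slit2, a repulsive guidance cue, in 141 at 1924 against 158 CPM and Igfbp5, which binds insulin-like growth factors, in 93 at 525 against 6.19 CPM.

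Retinoid genes were sparse. Of 18, 11 were at 2 times or more, but only the receptor Rarb was detected in at least 20% of members (31.3% of members and 9.05% of astrocyte nuclei, 181 against 66.2 CPM in the other kept nuclei). Aldh1a2, which makes retinoic acid in embryonic meninges, had UMIs in 6 members, at 15.5 CPM. At a median of 2428 UMIs a nucleus can lack a transcript by chance, so the absence of a UMI does not show absence of expression.

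Lists of cell type markers were compared to check the name of the nuclei. The fibroblast list summed to 3805 CPM in members against 142 CPM in the other kept nuclei, and to 3134 against 141 CPM without the rule gene Col1a2. The arachnoid list summed to 1630 against 9.17 CPM, but 865 CPM of this was Slc47a1, and 3 of its 8 genes were in the rule. Without these it summed to 414 against 5.77 CPM, of which Tspan11 made up 378 CPM. The arachnoid barrier list, which holds no gene of the rule, summed to 1864 against 499 CPM. The other meningeal lists were lower, the pial list at 287 against 27.1 CPM and the dural list at 387 against 20.9 CPM. The dural sum came mainly from Foxc2 and Fxyd5, and the dural genes Nppc and Kera had no UMI. Mural, endothelial, microglia and macrophage, and choroid plexus and ependyma markers had small sums, all but the last above those of the other nuclei. Mural genes summed to 110 against 8.62 CPM, with 88.3 CPM from Atp13a5 and with Rgs5, Kcnj8, Higd1b, Acta2 and Tagln at 0. Endothelial genes summed to 92.2 against 23.4 CPM, with UMIs of 7 of the 9 genes and with Cldn5 and Ly6c1 at 0, and microglia and macrophage genes to 89.4 against 56.9 CPM, with F13a1 and Cd163 at 0. Choroid plexus and ependyma genes summed to 64.6 against 110 CPM.

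Neuronal and astrocyte genes were also present. The neuron list summed to 1835 CPM in members against 29781 CPM in the other nuclei and 17327 CPM in astrocyte nuclei. In members 4 of its 10 genes were absent by the rule. The astrocyte list reached 1941 CPM, against 613 CPM in the other kept nuclei and 9118 CPM in astrocyte nuclei, with Gja1 the widest of its genes in members and Aqp4 in only 3 members. Oligodendrocyte genes stood at 465 CPM, near the 504 CPM of the other nuclei, and OPC genes at 486 against 1294 CPM. The oligodendrocyte sum was uneven, with medians over animals of 86.7 CPM in WT and 110 CPM in Het but 2740 CPM in WT female 2. Outside the genes of the rule, the fibroblast, arachnoid, arachnoid barrier, pial and dural lists were thus higher in members than in the other nuclei. So were the mural, endothelial, microglia and macrophage, and astrocyte lists. The rule's markers Slc6a13 and Ranbp3l were found in few members. None of the 71914 nuclei met the criteria for endothelial nuclei, which by counting error allows up to 3 that meet them and sets no limit on shallow nuclei that miss them. Only 4 met those for mural nuclei, so that members could not be set against either.

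**Figure D2:**
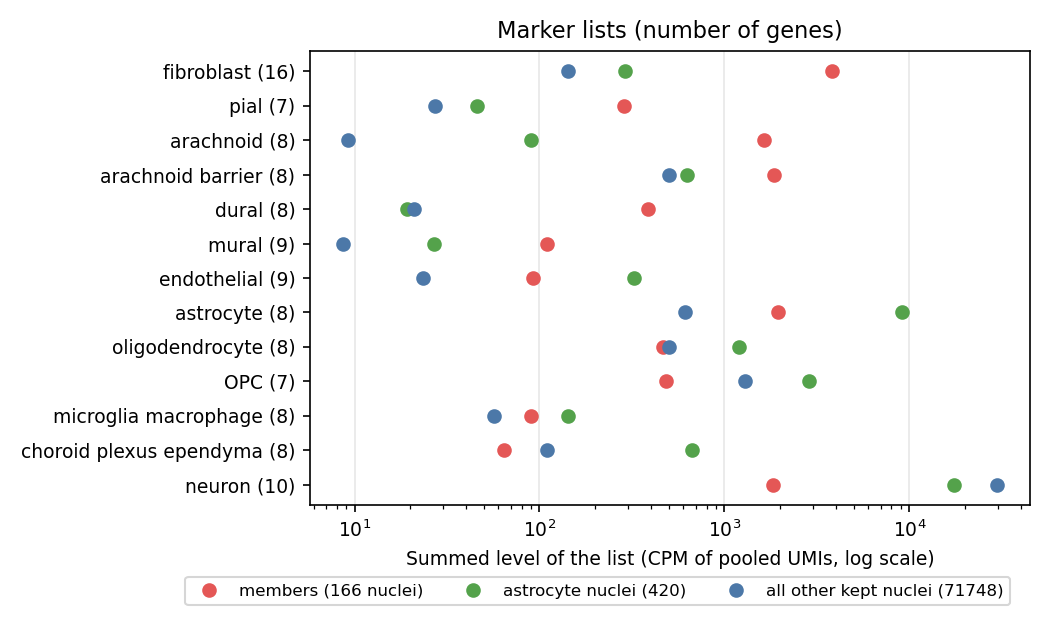
Summed level of each list of marker genes on a log axis of CPM, with the number of genes in parentheses. Red points are the 166 members, green points 420 astrocyte nuclei and blue points all 71748 other kept nuclei. Members lie to the right of both others for the 5 fibroblast and meningeal lists and the mural list. They lie to the left of both for the neuron, oligodendrocyte, OPC, and choroid plexus and ependyma lists.

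Members were not uniform. Clustering of the 166 nuclei gave 8 groups of 36, 33, 24, 24, 20, 13, 9 and 7 nuclei, numbered 1 to 8 by size, which are described by their genes and not named. The clusters were made from the genes used to describe them, so none of the differences was tested. Clusters 1, 2, 5 and 6, with 102 nuclei together, shared one profile: Slc47a1 was in 90 of the 102, Slc4a10 in all 102 (10872 CPM), Tbx15 in 94 (1798 CPM) and Ranbp3l and Slc6a13 in none. Small differences separated these 4. Ism1, a secreted protein, was in 16 of the 36 nuclei of cluster 1 (376 CPM), and Thbs1 (thrombospondin) in 23 of the 33 of cluster 2 (946 CPM).

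Cluster 4 stood apart with the other partner genes of the rule. Of its 24 nuclei 18 held Ranbp3l (1591 CPM), and it held 5 of the 7 members with Slc6a13. Its leading genes included Lama1, a laminin chain on the pial list, Dapl1, Atp13a5, Rnf152, Kcnk2, the sugar transporter Slc2a12 and Lpar1, a receptor for lysophosphatidic acid. Against all other members, its nuclei held 1155 CPM of the peptidase gene Dpp4 against 89.3, 1876 CPM of Tjp1, which encodes the tight junction protein ZO-1, against 348, and 2007 CPM of Ptgds against 176. The proline transporter Slc6a20a was at 1230 against 93.2 CPM and Fn1 at 2401 against 793 CPM. Genes of the main profile were low in it. Slc47a1 was at 128 against 992 CPM, Slc4a10 at 1636 against 9177 and Tbx15 at 360 against 1533 CPM. Of the 8 members with the highest 5% of doublet scores in their animals, 6 were in cluster 4.

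The remaining clusters carried other programs. Cluster 7 (9 nuclei from 6 animals) was led by genes of cell division, Aspm, Iqgap3, Knl1, Diaph3, Cenpi, Kntc1, Tpx2 and Top2a. Top2a was in 7 of its nuclei at 1153 CPM and Mki67 in 6 at 1030 CPM, while Bnc2 stayed at 5346 CPM and Tbx15 was in all 9. Cluster 3 held genes of neurons and glia, led by Ralyl, Gabrb1, Prex2, Slc1a2, Ntm and Lhfpl3, with 1260 CPM of Slc1a2 and 2392 CPM of Meg3. Cluster 8 was led by genes of oligodendrocytes, with Mbp at 2184 CPM in 3 of its 7 nuclei. Without clusters 3 and 8, 135 members remained, and 302 genes were at 10 times or more their level in the other nuclei, 275 of them among the 279 found with all members.

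**Figure D3:**
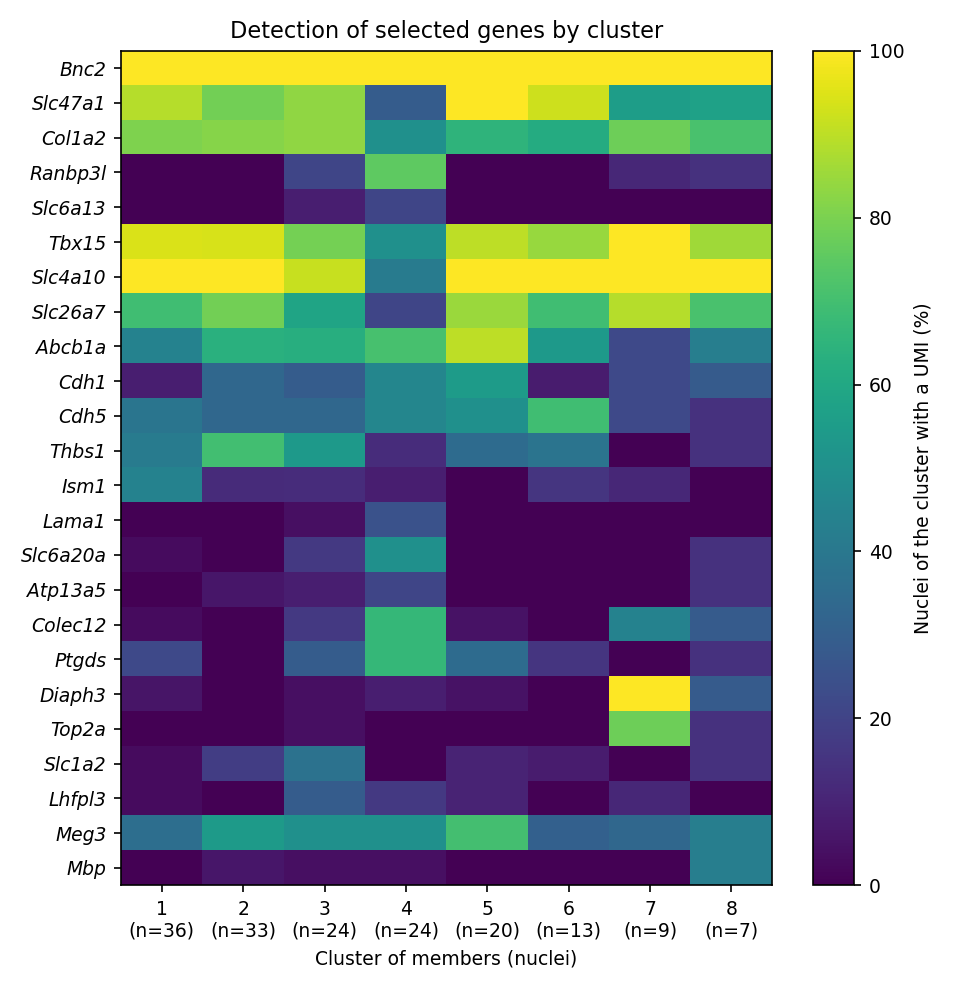
Share of the nuclei of each cluster with a UMI of 24 genes, in percent, from 0 (dark) to 100 (yellow). Columns are the 8 clusters with their number of nuclei. Cluster 4 is alone in combining frequent Ranbp3l, Slc6a20a, Colec12 and Ptgds with infrequent Slc47a1 and Slc4a10, and cluster 7 is alone in frequent Diaph3 and Top2a.

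The numbers per animal were small and uneven. WT males gave 2, 6 and 8 members, or 0.0526%, 0.102% and 0.101% of kept nuclei, and WT females 22, 17 and 6, or 0.534%, 0.348% and 0.0952%. Het males gave 16, 7 and 9, or 0.281%, 0.0997% and 0.156%, and Het females 18, 26 and 29, or 0.235%, 0.449% and 0.410%. The exact 95% binomial intervals, which cover counting error only, were as wide as 0.335% to 0.807% in WT female 1 and 0.00637% to 0.190% in WT male 1. WT and Het animals overlapped over nearly the whole range.

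Whether loss of 1 Myt1l allele altered the share of these nuclei was the first comparison. The mean share was 0.205 ± 0.192% in WT and 0.272 ± 0.138% in Het (SD, n = 6 each), a difference of 0.0663 percentage points that was smaller than the spread between animals. The exact two-sided permutation test over all relabellings gave p = 0.515 (0.773 after Benjamini-Hochberg adjustment over the 3 tests of shares). By sex, the mean was 0.132 ± 0.0801% in males and 0.345 ± 0.158% in females (SD, n = 6 each). Of the females 5 of 6 lay above the median male of 0.102%, and WT female 3 at 0.0952% lay below it. Het female 1 at 0.235% also lay below the highest male, Het male 1 at 0.281%. The exact permutation test of the difference between the sexes of -0.213 percentage points gave p = 0.026, which did not pass adjustment over the 3 tests (0.0779).

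Within WT the means were 0.0853 ± 0.0283% in males and 0.326 ± 0.220% in females, and within Het 0.179 ± 0.0930% and 0.364 ± 0.114% (SD, n = 3 each). The genotype effect differed between the sexes by 0.0549 percentage points, male minus female (exact permutation p = 0.8). That test exchanged sex labels within each genotype and so takes the sexes to be alike. It therefore does not test the interaction alone. The share of astrocyte nuclei was 0.512% in males and 0.676% in females, with p = 0.0736 in the same exact permutation test, and its part in the result was not tested. Expressed per 100 astrocyte nuclei, members numbered 27.0 ± 16.2 in males and 50.3 ± 20.7 in females, and the exact permutation p was then 0.0606. By genotype they numbered 29.2 ± 21.2 in WT and 48.1 ± 18.8 in Het (SD, n = 6 each, exact permutation p = 0.139). Without WT female 3 the difference was -0.263 percentage points with an adjusted exact permutation p of 0.0195.

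**Figure D4:**
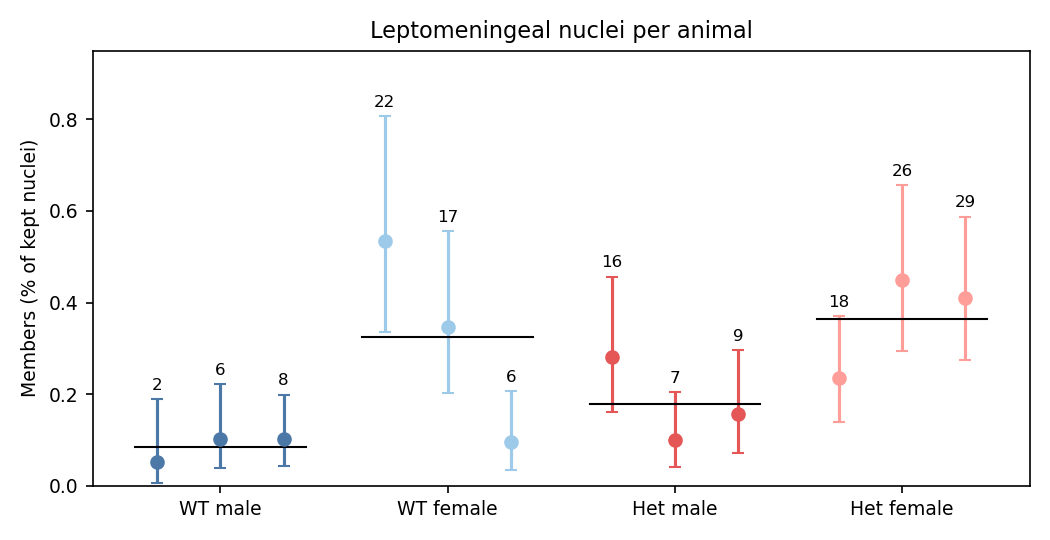
Members as a percentage of kept nuclei in each animal, with exact 95% binomial intervals as bars, the number of members above each bar and the mean of each group of 3 as a black line. Females lie higher on average (0.345%) than males (0.132%). WT female 3 at 0.0952% and Het female 1 at 0.235% lie within the range of the males, whose highest is Het male 1 at 0.281%.

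Myt1l itself was nearly absent from members: 11 of the 166 held a UMI, 15 in all, for a level of 33.1 CPM against 956 CPM in the other kept nuclei. Its level per animal was 247, 0 and 50.9 CPM in WT males, 17.3, 113 and 74.9 in WT females, 35.0, 95.9 and 40.7 in Het males and 0 in all Het females. Of the astrocyte nuclei 48.1% held a Myt1l UMI against 6.63% of members. The astrocyte nuclei summed to 17327 CPM on the neuron list against 1835 CPM in members, so they give no background level for Myt1l. Whether the UMIs in members came from other cells was not tested. With so few UMIs the genotype could not be checked in these nuclei.

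Genes were compared between genotypes by edgeR's quasi-likelihood test on counts summed over members in each animal. Only 6 animals had the 10 members required, WT females 1 and 2, Het male 1 and Het females 1, 2 and 3, so that both WT animals were female. Of 1572 genes tested 1 (0.0636%) was called, which took an adjusted p under 0.05 together with a log2 fold change beyond 0.2 in either direction, and 71 had an unadjusted p under 0.05. The called gene was Meg3, a long noncoding RNA on the neuron list, which fell by 1.85 ± 0.35 (SE) on the log2 scale in Het (edgeR, Benjamini-Hochberg adjusted p = 0.0493). Its levels were 902 and 1427 CPM in the WT animals and 368, 363, 479 and 152 CPM in the Het animals.

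The call of Meg3 depended on which animals were used. In animals with fewer members, WT female 3 had 3073 CPM and Het male 2 had 4314 CPM, and over 11 animals the log2 fold change was -0.37 (edgeR, adjusted p = 0.999). With clusters 3 and 8 left out it was -0.10 (edgeR, adjusted p = 0.985), but cluster 3 had a high level of Meg3 and leaving it out lowers this gene by construction. The sum of the neuron list in members ranged from 1044 to 4309 CPM in WT and from 692 to 8050 CPM in Het. Without WT female 2, which left 1 WT animal, the log2 fold change was -1.43 and Meg3 was not called. The call was also lost without Het male 1 (edgeR, adjusted p = 0.103), Het female 1 (0.143) or Het female 3 (0.164). Over the fits without single animals the log2 fold change of Meg3 lay between -2.15 and -1.43. Without WT female 1 the number of called genes was 32 and without WT female 2 it was 2. Each of these fits set 1 WT animal against 4 Het animals, so the spread came from the Het animals alone and the lone WT animal was assumed to vary like them.

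In the 11 animals with at least 5 members, 5 WT and 6 Het, edgeR called 0 of 1172 genes (0%), with 56 at an unadjusted p under 0.05, and DESeq2 also called 0, with 109. The gene with the smallest p was Cpeb2, which encodes an RNA-binding regulator of translation, and it was not called. Cpeb2 stood at 140, 102, 86.7, 56.3 and 74.9 CPM in the WT animals and at 473, 288, 122, 229, 399 and 303 CPM in the Het animals. These levels rested on 3, 2, 5, 3 and 1 UMIs in WT and on 27, 6, 3, 12, 25 and 20 UMIs in Het. The groups overlapped only in Het male 3, below WT male 2. Cpeb2 was picked by its p, and the overlap of the other genes tested was not examined. The log2 fold change was 1.85 ± 0.40 (SE, edgeR adjusted p = 0.110), and over the 6 animals it was 2.20 ± 0.48 (adjusted p = 0.107). With no filter on low counts in the 6 animals Cpeb2 was called (2.22, edgeR adjusted p = 0.00972), one of 24 genes called there, while over the other alternatives its adjusted p ranged from 0.0535 to 1.000.

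The other genes with the smallest p in the 6 animals were likewise not called. Those higher in Het were Cyfip2 (1.44 ± 0.40), Colec12 (1.43 ± 0.47), Mpdz (1.15 ± 0.38) and Arpc2 (1.71 ± 0.66), as log2 fold changes with SE, and those lower were Kcnip4 (-1.55 ± 0.39), Acin1 (-1.45 ± 0.40), Hdac9 (-1.94 ± 0.55) and Agap1 (-1.50 ± 0.44). With at least 5 members per animal Kcnip4 turned to 0.27, 0.91 and 0.023 in the fits that tested it, and Het male 2 was then at 1630 CPM. Cyfip2 and Arpc2 encode parts of the WAVE and Arp2/3 machinery that builds actin networks, and Mpdz a scaffold of tight junctions. The median SE of a log2 fold change was 0.409 in the 6 animals and 0.327 in the 11, so that only large differences could be called.

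By list, no gene of the meningeal, matrix, transport, junction or signalling lists was called in the 6 or the 11 animals. Over 11 animals, 8 of the 16 fibroblast genes were tested, 5 of them higher in Het, with a median log2 fold change of 0.19, against -0.0015 over all genes tested. For the matrix list 17 of 38 were tested, 11 higher, with a median of 0.081, and for the meningeal transcription factors 17 of 38, 6 higher, with a median of -0.12. For the transport list 13 of 33 were tested, 4 higher, with a median of -0.11.

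The arachnoid barrier list had the largest median of these lists. Of its 8 genes 5 were tested in the 11 animals, all 5 were higher in Het, and the median log2 fold change was 0.91. In the 6 animals 6 of its genes were tested, 5 were higher in Het, Cdh1 was at -0.13, and the median was 0.67, against -0.015 over all genes tested. Dpp4 stood at 0, 50.9, 243, 65.7 and 0 CPM in WT and at 333, 336, 163, 344, 223 and 470 CPM in Het, and the groups overlapped through WT female 1 alone. The Dpp4 levels rested on 0, 1, 14, 3.5 and 0 UMIs in WT and on 19, 7, 4, 18, 14 and 31 UMIs in Het. Tjp1 stood at 467, 204, 561, 282 and 74.9 CPM in WT and at 981, 431, 407, 745, 670 and 606 CPM in Het. These groups overlapped through WT male 2 and WT female 1, which lay above the lowest Het animals. Neither gene passed adjustment, with log2 fold changes of 1.54 ± 0.46 for Dpp4 and 0.91 ± 0.32 for Tjp1 (SE, edgeR adjusted p = 0.909 for both), nor did Cldn11 (1.06 ± 0.45, adjusted p = 0.909), a claudin of tight junctions.

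Cluster 4, where Dpp4 and Tjp1 were high, was unevenly spread over the same animals. Other genes of the barrier list went both ways in it. Against all other members, Cldn11 (405 against 155 CPM) and Cdh1 (270 against 163 CPM) were higher. Klf5 (105 against 179 CPM) and Abcg2 (390 against 502 CPM) were lower. Cluster 4 held 0, 2 and 0 nuclei of WT males, 1, 2 and 0 of WT females, 4, 0 and 1 of Het males and 4, 3 and 7 of Het females. Cluster 4 was made from the expression of these nuclei, so leaving it out lowers the genes that are high in it by construction, and the fits without it give values only. In the 6 animals the log2 fold change of Tjp1 was 0.77 ± 0.34 with all members and 0.38 ± 0.48 without cluster 4, and that of Klf5, a transcription factor on the barrier list, was 1.12 ± 0.55 and 1.39 ± 0.59 (SE, edgeR). Cldn11 was at 0.57 ± 0.45 with all members and 0.25 ± 0.54 without cluster 4, where Dpp4 (1.03 ± 0.44 with all members) was not among the genes tested. Without clusters 3 and 8 Tjp1 was at 1.22 ± 0.42, Cldn11 at 1.33 ± 0.56 and Dpp4 at 0.85 ± 0.53. None of these passed adjustment, with edgeR adjusted p from 0.689 to 0.997. The astrocyte list ran from 535 to 2175 CPM in WT (median 1039) and from 1461 to 3991 CPM in Het (median 2061). With at least 5 members per animal, 4 of its 8 genes were tested and all 4 were higher in Het (median log2 fold change 0.69). In the 6 animals 5 of its genes were tested and 3 were higher in Het (median 0.42). None of these astrocyte genes was called or had an unadjusted p under 0.05 in either fit (edgeR). The part of the astrocyte genes in the result was not tested.

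**Figure D5:**
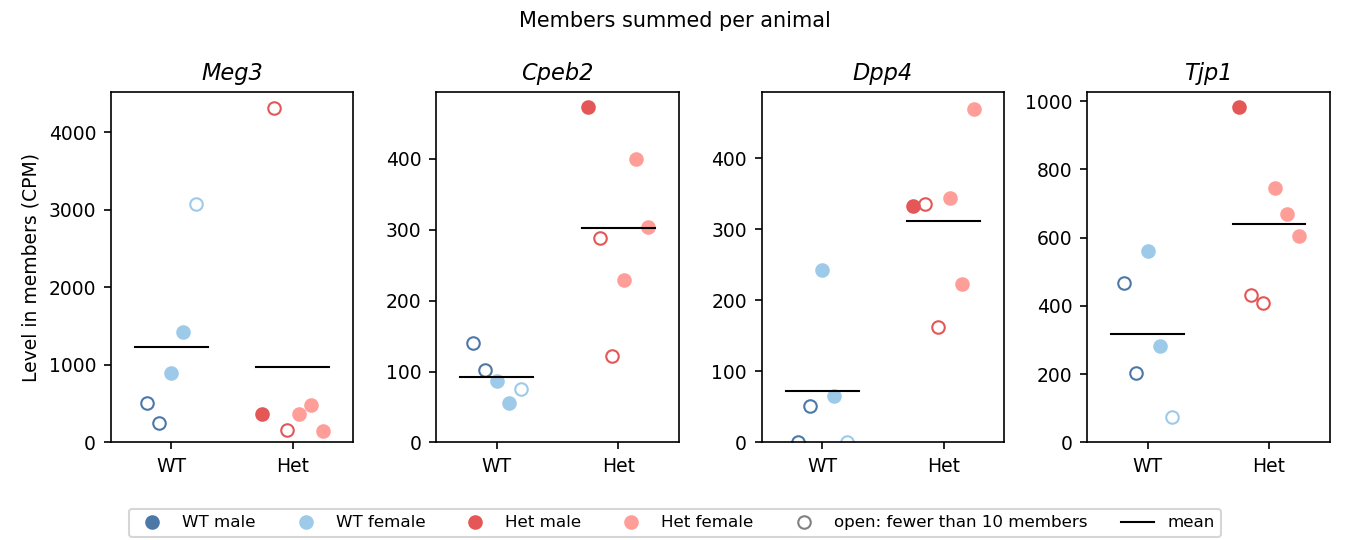
Levels in CPM of Meg3, Cpeb2, Dpp4 and Tjp1 in members summed per animal, for the 11 animals with at least 5 members. Blue points are WT and red points Het, with females in the lighter shade, open points animals with fewer than 10 members and black lines the means. Cpeb2 runs from 56.3 to 140 CPM in WT, on 1 to 5 UMIs per animal, and from 122 to 473 CPM in Het, on 3 to 27. Meg3 has 1 high animal in each genotype.

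The levels of Xist and Uty matched the labelled sex in all 12 animals. Xist, the RNA that silences an X chromosome, was at 0 CPM in the members of all 6 males and at 558 to 917 CPM in females, and the Y-linked gene Uty at 0 CPM in all 6 females and at 244 to 741 CPM in males. Ddx3y, also Y-linked, had no UMI in 5 of the 6 females and 1 UMI (18.8 CPM) in WT female 2. In the 6 animals with at least 10 members, of which only Het male 1 was male, so that the spread came from the 5 females, edgeR called 1 of 2086 genes (0.0479%) between the sexes, Xist, with an adjusted p of 0.000102. In the 11 animals it called 2 of 1579 (0.127%), Xist and Uty, with 47 at an unadjusted p under 0.05. DESeq2 also called 2 there, with 108 at an unadjusted p under 0.05. The fitted fold changes of Xist and Uty are set by the counts of 0 and are not given. Autosomal genes with the smallest p in the 6 animals, such as Arid5b (1.97 ± 0.50 higher in males on the log2 scale, SE, edgeR adjusted p = 0.276), were not called. That value rests on 1 male, and over the 11 animals it was 0.77 ± 0.41 (SE, edgeR adjusted p = 1.000). With clusters 3 and 8 left out in the 6 animals Arid5b was called (2.54, edgeR adjusted p = 0.00199).

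The tdTomato transcript of the injected AAV9 showed how members compared with other nuclei for a gene outside the rule. Members held 0, 1 and 0 tdTomato UMIs in WT males, 4, 25 and 0 in WT females, 0, 1 and 4 in Het males and 0, 2 and 0 in Het females. At the level of the other kept nuclei of the same animals, 171 to 383 CPM, they would have held from 0.693 (WT male 1) to 23.2 (Het female 3) UMIs. Members were lower in 11 of 12 animals, with a mean difference of -4.87 in log2(CPM + 1). The exact two-sided sign-flip permutation test within animals gave p = 0.000977 over 4096 sign patterns. That test takes the differences to be symmetric around 0 when levels are equal. Few expected UMIs, unevenly spread over nuclei, can make them lean below 0, so this p is not exact for equal levels. The size of the difference depends on the value added, since 6 animals were at 0, and was -3.16 with 10 CPM added. It rests heavily on these animals, also on WT male 1, where 0.693 UMIs at the level of the others make a count of 0 uninformative. These means are therefore not the difference of the pooled UMIs, which is smaller. WT female 2 was the exception at 469 CPM in members against 353 CPM in its other nuclei, with 14 of its 25 UMIs in 1 nucleus. Without it the difference was -5.35.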

How the data were processed

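Count matrices of single-nucleus RNA sequencing (ScaleBio kit) from the cortex of 12 mice at P21 were analysed. Reads had been aligned to mm10 by the authors, and ScaleRna gave UMIs per gene and nucleus. The deposited values are expected counts, in which a UMI that fits several genes is divided among them, without normalization, and 92.6% of entries were whole numbers. Sums were rounded before tests. Per the labels, the submitters used Seurat 4.3.0 and DESeq2 1.38.3. Gene positions were taken from GENCODE vM21, in which 54587 of 55335 features had the same identifier.

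Members were found by raw UMIs. Barcodes over 12000 UMIs (6808) or 1% mitochondrial UMIs (21) were dropped from 78743. The study removed multiplets with DoubletFinder and then applied limits on UMIs and genes. The deposited matrices hold barcodes outside those limits, and whether multiplets had been removed from them is not given in the sources used here. Doublets were scored in each animal by Scrublet in scanpy 1.11.5, nuclei were not removed by these scores, and removing the highest 5% was an alternative. Of the members, 160 lay within the study's limits on UMIs and genes. CPM values are UMIs summed over nuclei per 1000000, with the tdTomato transcript counted in the totals. Astrocyte nuclei were free of neuronal UMIs, with at least 3 UMIs of Slc1a2 and Slc1a3 and 1 of Aqp4, Gja1 or Gpc5. Endothelial nuclei needed 2 UMIs of Flt1 and 1 of Cldn5, Mecom or Adgrl4, and mural nuclei 2 in the sum of Rgs5, Kcnj8, Abcc9, Higd1b, Notch3 and Atp13a5. Clusters came from Leiden clustering (leidenalg 0.10.2, resolution 1) on 10 principal components of 2000 variable autosomal genes and 10 neighbours.

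Shares, depth and tdTomato were compared by exact permutation tests over animals (scipy 1.17.1). Genes were tested with edgeR 4.0.16 (TMM, filterByExpr, robust quasi-likelihood) on counts summed per animal, with genotype alone or genotype and sex, in animals with at least 10 members, and with at least 5 as an alternative chosen after seeing the data. DESeq2 1.42.0 was an alternative. All tests are two-sided with Benjamini-Hochberg adjustment over all genes tested. The script was tested on simulated counts. Other tools were Python 3.11.15, numpy 2.4.6, pandas 2.3.3, matplotlib 3.10.9 and R 4.3.3.

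The members, marker lists and tests were chosen with earlier results of these data known. Genes named are those of the rule, Myt1l, tdTomato, Xist, Uty and Ddx3y, the 25 with the largest ratio among genes in at least 20% of members, up to 4 of each list found in the most members, called genes, the 5 with the smallest p in a direction with fewer than 5 calls, and 8 leading genes per cluster, except a few that are not reported here. Other genes were named after their values were seen. Same-numbered animals did not deviate together (correlations from -0.38 to 0.258 between genotypes and from -0.583 to 0.0079 between sexes, over 5593 genes), so the numbers were not used as pairs.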

Additional observations from a re-analysis of the deposited data

Results flagged for a closer look

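In 16 of 88 groups of animals examined, 1 animal lay far from the others in its members, where chance alone gives about 1 in 20 for independent groups of normally spread values. The 88 groups use each animal more than once, by genotype and by sex, and hold skewed sums of few UMIs, so the count was not set against that rate. These are values of few nuclei, and their causes were not tested. The tdTomato level in members was 469 CPM in WT female 2, far above the next WT animal and the next female at 69.4 CPM, and 163 CPM in Het male 3, above the next Het animal and the next male at 47.9 CPM. The summed neuron list was 8050 CPM in Het male 2, whose 7 members included 4 of cluster 3, against 1254 CPM in the next Het animal and 1775 CPM in the next male. The OPC list was also highest there among Het animals, at 2109 CPM against 751 CPM. The oligodendrocyte list reached 2740 CPM in WT female 2 against 478 CPM in the next female, 1018 CPM in WT male 3 against 163 CPM in the next male, and 478 CPM in Het female 1 against 163 CPM in the next Het animal. The choroid plexus and ependyma list was 413 CPM in WT female 2 against 74.9 CPM in the next WT animal and the next female.

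Among meningeal lists, the pial list was 560 CPM in WT male 2 against 356 CPM in the next male, and 191 CPM in Het female 1, below the 280 CPM of the next Het animal. The dural list was 773 CPM in Het male 3 against 368 CPM in the next male. Slc6a13 stood at 87.6 CPM in Het male 1 against 30.3 CPM in the next Het animal.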

How the results depend on the processing

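Fits with at least 5 members per animal or all 12 animals, those with clusters left out, neuronal UMIs allowed in members, and shares per astrocyte nucleus or on a log scale were chosen after seeing the data. The number of genes called between genotypes was 0 rather than 1 with DESeq2, DESeq2's size factors, the study's limits, the looser rule, the highest Scrublet scores removed, sex as a covariate, clusters 3 and 8 left out, all 12 animals, and every fit with at least 5 members per animal, with 20 to 109 genes at an unadjusted p under 0.05. It was 2 under the stricter rule and 24 with no filter on low counts. Leaving out each animal in turn gave 0 to 32. Between the sexes the count was 0 with DESeq2 (15 at an unadjusted p under 0.05), 3 with no filter, 2 with clusters 3 and 8 left out, with all 12 animals or with at least 5 members (also with DESeq2), and 3 with at least 5 members and clusters 3 and 8 left out. Leaving out each animal gave 1 to 3, and no test was possible without Het male 1, the only male. These counts held 1 autosomal gene with no filter (Pcdh15) and in both fits without clusters 3 and 8 (Arid5b in the 6 animals), and 2 without WT female 1 (Pcdh15 among them).

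With a replicate block, 0 genes were called between genotypes at both minimum numbers of members, and 2 between sexes with at least 5 members. The block could not be fitted for sex in the 6 animals. For shares the block gave exact permutation p = 0.4375 for genotype and 0.125 for sex.

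The difference in share between sexes passed adjustment when neuronal UMIs were allowed in members (-0.260 percentage points, adjusted exact permutation p = 0.0325), and was -0.408 under the study's limits (adjusted p = 0.0779), and without single animals ranged from -0.263 to -0.175 (adjusted p from 0.0195 to 0.136). The difference between genotypes ranged from 0.0309 to 0.132. The interaction was -0.0368 with clusters 3 and 8 left out and ranged from -0.0492 to 0.170 without single animals, turning negative without WT female 1 or Het female 1. The difference in UMIs per member was -83.8 with clusters 3 and 8 left out and ranged from -72.5 to 96.7. The tdTomato difference ranged from -5.35 to -4.54 without single animals and was -5.83 with clusters 3 and 8 left out. Genes at 10 times or more numbered 271 to 291 without single animals, 248 under the study's limits and 213 against other nuclei free of neuronal UMIs, where 208 of the 279 were shared.

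The log2 fold change of Kcnip4 turned to 0.27, 0.91 and 0.023 with at least 5 members under the replicate block, DESeq2 and sex as a covariate. That of Abca9 between sexes turned to 0.0050, with clusters 3 and 8 also left out to 0.16 and with DESeq2 to 0.098. The few members per animal limit all gene tests, and transcripts from other cells in members were not removed.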
